A study of Rattus norvegicus with 2 samples.

Results

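The immediate early FOS, JUN and EGR genes are the 10 genes Fos, Fosb, Fosl1, Fosl2, Jun, Junb, Jund, Egr1, Egr2 and Ier2. They were chosen by name and found through the RefSeq accession of each probe, and all 10 were among the 15442 named genes on the array. The RNA came from precursor cells of the cerebral cortex of Sprague-Dawley rat embryos (E14, the label SD Rat), a primary culture that the labels call neural stem cells. All cells had been expanded in N2 medium with 10 ng/mL bFGF (basic fibroblast growth factor) and electroporated with 4 µg of plasmid, so that every group, the control included, received the viral vector MSCV-IRES-EGFP. One group received the empty vector and then spent 2 days in NB medium with bFGF withdrawn, which the labels call differentiation. Another received rat Bcl-2 in the same vector and kept bFGF; Bcl-2 protects mitochondria in apoptosis. The control received the empty vector and kept bFGF. By this description, bFGF removal came together with the move to NB medium and the 2 days there, and these cannot be told apart. Below, vector without bFGF and cells without bFGF name this group. The labels call the transfection transient, and the share of cells that took up plasmid is not given in the sources used here. By the labels, red (Cy5) of the withdrawal array holds vector without bFGF, red of the other array Bcl-2 with bFGF, and green (Cy3) of each vector with bFGF. The overexpressed gene itself, Bcl2, measured by 1 probe and 1 spot, did not stand out on the array labelled Bcl-2. Its net signal there (spot minus local background) was 658 in red and 367 in green, and its log2 ratio after dye normalization was -0.02 (0.04 with the scanner software's ratio, error 0.205). On the withdrawal array, Bcl2 was at 0.39 (0.29 with the scanner software's ratio, error 0.207). Raised Bcl2 RNA was thus not seen in the channel labelled Bcl-2, and whether this probe reads the part of the transcript that the plasmid carries is not given in the sources used here. There is 1 array per comparison and no dye swap, so no difference has a replicate check and no test across samples was made.

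Immediate early genes are transcribed within minutes of a growth factor or synaptic signal, before any new protein is made, because the factors at their promoters are already present and are switched on by kinases. FOS and JUN proteins pair through leucine zippers into the transcription factor AP-1, while EGR proteins are zinc finger factors. Fibroblast growth factor acts through a receptor tyrosine kinase and the ERK kinases, which phosphorylate ETS-family partners of serum response factor (SRF) at CArG boxes in such promoters. In neural tissue, Fos and Egr1 are best known as markers of recent neuronal activity.

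Promoter sequences of 8 of the 10 genes were found in a RefSeq table of build GRCr8, and 5 are shown. The results turn on these genes: as labelled, Egr1, Egr2 and Ier2 were lower without bFGF, and Fosl1 and Jund higher. The sequences of Fos and Jun were not found, so the motif counts below do not cover Fos and Jun. Each sequence is the 250 bases before the gene's start, 5′ to 3′ on the strand of the gene. Capitals mark the CArG box, to which SRF binds, the cyclic AMP response element TGACGTCA, to which CREB-family factors bind, and the EGR site GCGNGGGCG. Egr1 is at chr18:26736828-26737077 (plus strand), Egr2 at chr20:21054442-21054691 (minus strand), Ier2 at chr19:40399123-40399372 (plus strand), Fosl1 at chr1:212183635-212183884 (plus strand) and Jund at chr16:18769772-18770021 (minus strand).
Egr1: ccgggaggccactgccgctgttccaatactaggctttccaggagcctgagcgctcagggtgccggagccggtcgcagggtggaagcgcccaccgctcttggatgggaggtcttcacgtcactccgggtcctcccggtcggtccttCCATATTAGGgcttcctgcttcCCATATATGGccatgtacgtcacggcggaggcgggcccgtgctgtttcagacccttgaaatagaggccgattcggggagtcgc
Egr2: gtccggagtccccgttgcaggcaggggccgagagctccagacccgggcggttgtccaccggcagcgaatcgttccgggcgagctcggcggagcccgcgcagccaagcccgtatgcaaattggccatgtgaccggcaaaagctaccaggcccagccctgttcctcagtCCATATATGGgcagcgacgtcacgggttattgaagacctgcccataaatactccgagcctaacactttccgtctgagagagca
Ier2: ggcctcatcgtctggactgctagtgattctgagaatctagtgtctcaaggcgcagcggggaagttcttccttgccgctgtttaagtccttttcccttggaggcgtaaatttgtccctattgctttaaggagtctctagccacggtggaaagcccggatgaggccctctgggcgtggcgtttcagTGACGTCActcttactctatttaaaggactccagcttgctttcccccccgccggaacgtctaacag
Fosl1: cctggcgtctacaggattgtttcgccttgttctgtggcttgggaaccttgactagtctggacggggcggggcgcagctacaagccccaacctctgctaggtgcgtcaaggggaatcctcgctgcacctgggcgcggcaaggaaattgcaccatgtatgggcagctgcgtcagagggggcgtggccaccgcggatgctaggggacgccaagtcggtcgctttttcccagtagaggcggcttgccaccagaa
Jund: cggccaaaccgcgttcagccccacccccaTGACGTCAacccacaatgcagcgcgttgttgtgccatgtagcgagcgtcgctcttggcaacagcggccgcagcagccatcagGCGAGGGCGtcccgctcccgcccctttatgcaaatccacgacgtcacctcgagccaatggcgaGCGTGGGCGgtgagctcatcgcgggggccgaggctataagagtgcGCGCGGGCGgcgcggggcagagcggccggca
The Egr1 window holds 2 CArG boxes, with first bases at -105 and -83 from the start, and the Egr2 window holds 1, at -83. These were the 2 of 8 members with a CArG box, a motif found in 1.5% of all 33469 windows of this length. The response element stands once in Ier2, at -66, and once in Jund, at -221, and occurs in 1.59% of all windows. The Fosl1 window holds no match to any motif searched. The AP-1 site TGANTCA was in 0 of 8 members and 6.34% of all windows, and the EGR site was in Fosl2 once and in Jund 3 times, against 4.29% of all. The ETS core CCGGAA was in Egr2 and Ier2 (12.6% of all) and TATAAA in Fosb and Junb (12.9% of all). Both strands were read and no match overlapped another. A match describes letters and does not show that a factor was bound.

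The sign of every ratio rests on the labels, and the arrays leave it unsettled. Over 42877 gene spots, Pearson's r between the arrays' log2 ratios was -0.67 (-0.12 with the ratio computed by the scanner software, Feature Extraction), although both were hybridised in the same orientation against RNA with the same label. With the signal in each channel scaled alike, the green channels of the arrays differed with an SD of 0.40 over 26861 spots, while green of the array labelled Bcl-2 and red of the withdrawal array differed with an SD of 0.14. Values are therefore red over green as labelled, and if an array's dyes were recorded the wrong way round, each of its ratios changes sign. Red and green were well above background at 72.0% and 66.3% of gene spots on the withdrawal array, and at 66.1% and 66.6% on the array labelled Bcl-2, and 0 spots were saturated. Negative-control spots had a median net signal of 2.50 in red and 60.0 in green on the withdrawal array, and of 35 and 63.5 in the same order for the array labelled Bcl-2, and dim green signals lie close to these levels. The progenitor genes Nes, Sox2, Vim and Pax6 were well above background in all 4 channels, and Gfap, the astrocyte filament, was not well above background in any. The other astrocyte markers listed, Aqp4, Aldh1l1, Slc1a3, Slc1a2, S100b, Gja1 and Apoe, were measured on both arrays.

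On the withdrawal array, Egr1, Egr2 and Ier2 were lower and Fosl1 and Jund higher in cells without bFGF than in cells with it, while Fos itself was near background. The order was turned for Egr1, Egr2 and Fosl1 on the array labelled Bcl-2, with Egr1 and Egr2 higher and Fosl1 lower in the channel labelled Bcl-2. Ier2, Jund, Jun and Fosb also had opposite signs on the arrays (-0.52 and 0.10, 0.55 and -0.22, -0.30 and 0.06, -0.11 and 0.15). Fos and Junb had the same sign on both, and Fosl2 had no value on the array labelled Bcl-2. With background correction by normexp and loess normalization, 0 of 10 measured members reached a 2-fold difference (a log2 ratio of 1 or more in size) on the withdrawal array, where 2.88% of 10880 genes did. Of 9 members measured on the array labelled Bcl-2, 0 did, against 2.55% of 10271 genes. Feature Extraction's ratio, which rests on another background estimate, put 1 of 10 members, Fosl1, at least 2-fold higher without bFGF, where 8.19% of all genes were. It put 1 of 9, again Fosl1, at least 2-fold lower in the channel labelled Bcl-2, where 6.83% of all genes were. In either direction the same ratio put 10.4% of all genes past 2-fold on the withdrawal array and 10.3% on the array labelled Bcl-2. The members' share past 2-fold is thus near that of all genes. Their median log2 ratio was -0.17 on the withdrawal array (0.17 with the sign turned), with 3 above and 7 below 0, against 0.03 over all genes. On the other array it was 0.10 (-0.10 with the sign turned), with 6 above and 3 below 0, against -0.01 over all genes. In RNA from whole cultures, fewer cells of a type and less RNA per cell cannot be told apart.

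**Figure D1:**
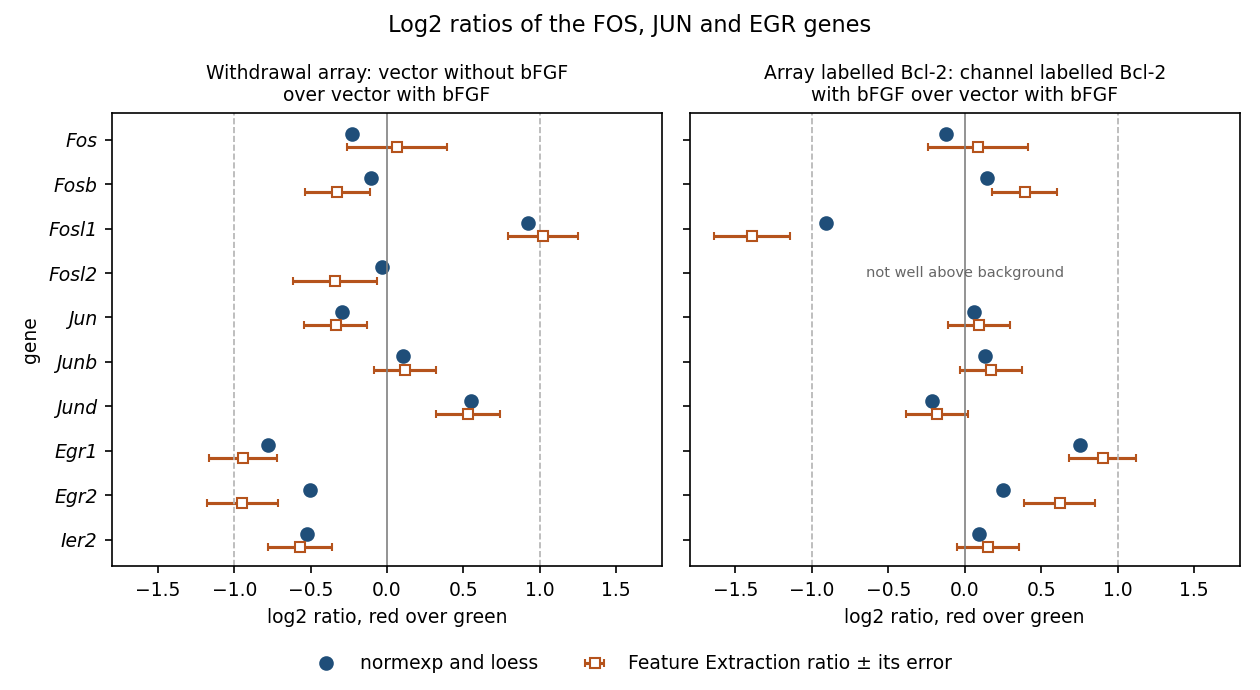
Log2 ratio of red over green (horizontal axis) for each of the 10 genes (rows) on the withdrawal array (left) and the array labelled Bcl-2 (right). Filled circles are normexp and loess values, open squares the Feature Extraction ratio with bars for its own error per spot, and dashed lines mark 2-fold. Egr1 lies at -0.78 on the left and 0.75 on the right, and Fosl1 at 0.92 on the left and -0.91 on the right.

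Egr1 encodes a zinc finger factor induced by growth factors and neuronal activity. On the withdrawal array its log2 signal, after loess and scaling of both arrays together, was 9.52 in vector without bFGF and 10.30 in vector with bFGF. The other array gave 10.09 in the channel labelled Bcl-2 and 9.34 in its control. The labelled controls are thus the highest and the lowest of the 4 channels. The log2 ratio was -0.78 without bFGF, that is 0.583 times the control, and 0.75 or 1.68-fold in the channel labelled Bcl-2. Of all genes measured, 1.02% lay at or below the first value and 1.16% at or above the second. Feature Extraction gave -0.94 with an error of 0.22 for the spot, and 0.90 with the same error of 0.22. Over the main processing and 7 alternatives, Egr1 stayed between -0.94 and -0.52 on the withdrawal array and between 0.64 and 0.90 on the other, so the sign held in each and 2-fold was reached in none. Changing the background filter or taking the brightest probe could not move Egr1, which has 1 probe. The same holds for Ier2, Fosl1 and Jund.

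Egr2, also called Krox20, is a related zinc finger factor best known for hindbrain segments and for myelin in Schwann cells. Its probe was printed 10 times on each array, which shows the noise within an array though not between cultures. The 10 spots had log2 ratios with a lowest of -0.64, a median of -0.47 and a highest of -0.43 on the withdrawal array. The 10 spots on the array labelled Bcl-2 had a lowest of 0.05, a median of 0.29 and a highest of 0.36. No spot on either array crossed 0. How often the spots of other repeated probes keep the same sign within an array was not counted, so this describes spot noise only. The mean was -0.50 ± 0.07 (SD over 10 spots) in vector without bFGF over the control and 0.25 ± 0.11 (SD over 10 spots) in the channel labelled Bcl-2 over its control. Of all genes, 4.43% lay at or below the first mean and 15.0% at or above the second. Egr2 was dim, with a mean net signal of 132 in red and 176 in green on the withdrawal array, and of 207 in red and 133 in green on the other. Feature Extraction's ratio was larger, at -0.95 ± 0.13 and 0.62 ± 0.14 over the same 10 spots, which is 0.519 times and 1.54-fold.

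Ier2, a small nuclear regulator named for its immediate early response, was also printed 10 times and was bright. On the withdrawal array its 10 spots had log2 ratios with a lowest of -0.58, a median of -0.52 and a highest of -0.49. Those on the array labelled Bcl-2 had a lowest of 0.07, a median of 0.09 and a highest of 0.15. The mean was -0.52 ± 0.03 in vector without bFGF, 0.697 times the control, and 0.10 ± 0.03 in the channel labelled Bcl-2 (SD over 10 spots each). Of all genes, 4.02% lay at or below the value on the withdrawal array, and 33.1% at or above the value on the array labelled Bcl-2, which was close to 0. Over the main processing and 7 alternatives, Ier2 ranged from -0.57 to -0.26 on the withdrawal array, the value nearest 0 coming with median centring, and from 0.05 to 0.15 on the other, with Feature Extraction errors of 0.211 and 0.205 for a spot. Log2 signals were 11.13 in vector without bFGF and 11.65 in its control, and 11.25 in the channel labelled Bcl-2 and 11.15 in its control.

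**Figure D2:**
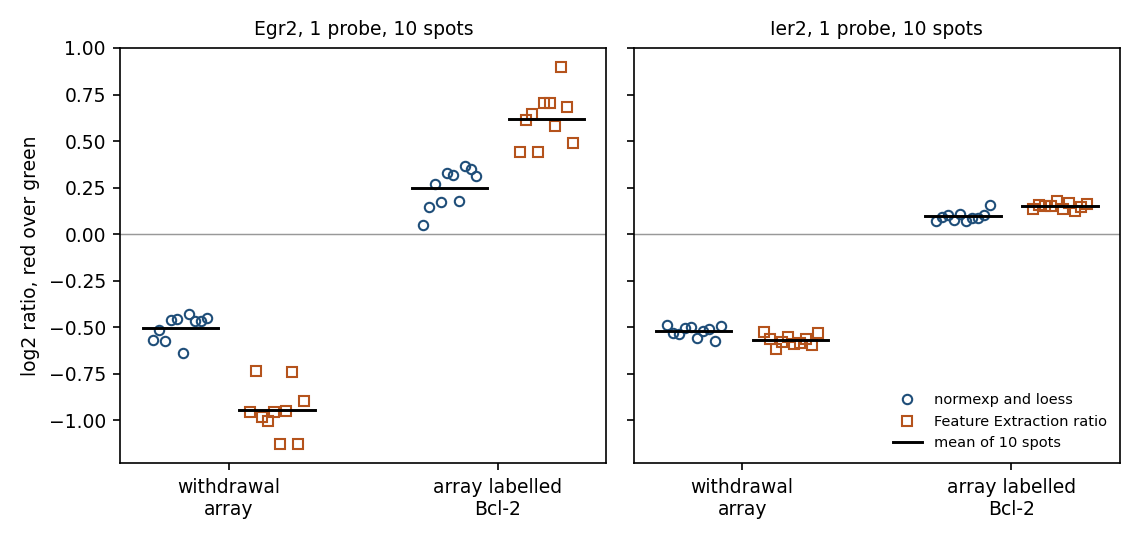
Log2 ratio of red over green (vertical axis) at each of the 10 spots of the Egr2 probe (left) and the Ier2 probe (right) on the withdrawal array and the array labelled Bcl-2. Circles are normexp and loess values, squares the Feature Extraction ratio and black lines the mean of 10 spots. The Egr2 squares lie further from 0 than its circles, while the Ier2 values nearly coincide.

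Among the FOS genes, Fosl1, which encodes the AP-1 subunit Fra-1, had the largest difference. It rests on 1 probe and 1 spot, and was dim in the lower channel of each array. The net signal of Fosl1 was 462.5 in red and 162 in green on the withdrawal array, and 201 in red and 299 in green on the other. Its log2 signal was 8.75 in vector without bFGF and 7.83 in vector with bFGF on the withdrawal array. On the other array it was 7.84 in the channel labelled Bcl-2 and 8.75 in its control. The signals form 2 levels, and each level is shared by red of one array and green of the other. The log2 ratio was 0.92 or 1.89-fold without bFGF (3.02% of genes at or above it), and -0.91 or 0.533 times in the channel labelled Bcl-2 (2.68% at or below it). Both values lie just inside the 2-fold limit, and Feature Extraction gave 1.02 with an error of 0.23 and -1.39 with an error of 0.25. Fosl1 was the 1 member past 2-fold under any of the 7 alternatives, and it ranged from 0.92 to 1.11 on the withdrawal array and from -1.46 to -0.91 on the other.

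Fos, the prototype immediate early gene and the subunit most used as an activity marker, was at the edge of detection. Its net signal was 58.0 in vector without bFGF and 104 in vector with bFGF on the withdrawal array. The array labelled Bcl-2 gave 94.5 in red, the channel so labelled, and 116.5 in its control. All 4 spots were flagged well above background, yet the green signals were within a factor of 2 of the negative controls. The log2 ratio was -0.23 without bFGF and -0.12 in the channel labelled Bcl-2. Feature Extraction turned both signs, to 0.06 with an error of 0.33 and 0.09 with an error of 0.33, so no direction can be given for Fos.

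Fosb, a FOS partner of JUN with a role in lasting neuronal responses, had log2 signals of 8.20 in vector without bFGF and 8.31 in its control. In the channel labelled Bcl-2 the signal was 8.37, against 8.23 in its control. The ratios were -0.11 and 0.15, and median centring without loess turned the first to 0.08. Feature Extraction gave Fosb -0.32 and 0.39, each with an error of 0.21. Fosl2, which encodes Fra-2, had 2 probes, of which the withdrawal array measured 1 well above background and the array labelled Bcl-2 measured 0. The kept probe was at -0.04 on the withdrawal array (-0.34 with Feature Extraction, error 0.28), and the gene has no value on the array labelled Bcl-2. No difference of Fosl2 was detectable at these signals.

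The JUN genes were brighter, and each rests on 1 probe and 1 spot. Jun, which encodes the founding AP-1 subunit and a target of the JNK kinases, had log2 signals of 10.86 in vector without bFGF and 11.16 in its control, and of 10.97 in the channel labelled Bcl-2 and 10.92 in its control. Its ratios were -0.30 and 0.06, with Feature Extraction errors of 0.206 and 0.204, and median centring without loess brought both near 0, at -0.038 and 0.0007. No difference of Jun on the array labelled Bcl-2 was detectable. Junb, often an antagonist of Jun in growth control, had signals of 9.95 in vector without bFGF and 9.85 in its control, and of 9.82 in the channel labelled Bcl-2 and 9.69 in its control. Junb was the 1 member slightly above 0 on both arrays, at 0.10 and 0.13, each smaller than its Feature Extraction error of 0.20 and 0.21.

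Jund, the JUN gene that is expressed steadily and is least dependent on stimulation, was higher without bFGF. Its log2 signal was 12.40 in vector without bFGF and 11.85 in its control, and 12.15 in the channel labelled Bcl-2 and 12.37 in its control. The ratio of 0.55 (1.47-fold) on the withdrawal array had 8.82% of genes at or above it, and ranged from 0.53 to 0.82 over the processing alternatives. The ratio was -0.22 on the array labelled Bcl-2, about the size of the spot's error, with 25.1% of genes at or below it, and ranged from -0.25 to -0.18. For scale, probes printed 5 or more times had a median SD over spots of 0.04 on both arrays, while the Feature Extraction error of the Jund spots was 0.21 and 0.20.

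**Figure D3:**
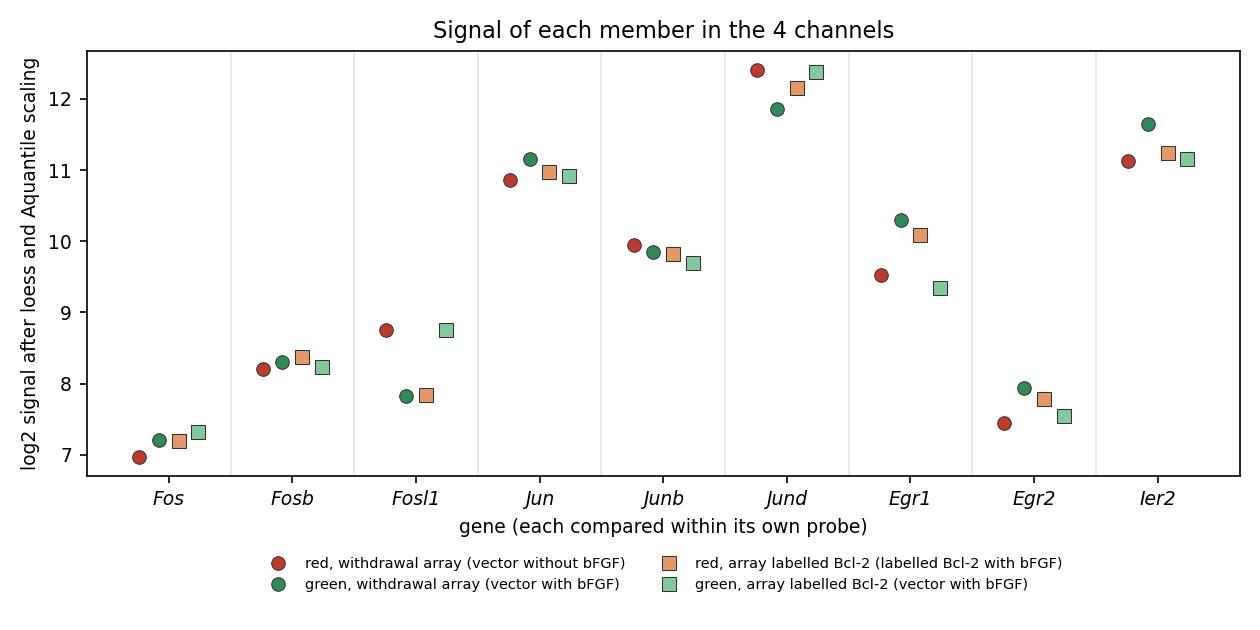
Log2 signal after loess and Aquantile scaling (vertical axis) of the 9 members measured in all 4 channels. Circles are the withdrawal array and squares the array labelled Bcl-2, with red channels in red or orange and green channels in dark or light green; levels can be compared within a gene and not between genes. Except for Fos and Junb, red of each array lies nearer to green of the other than the green channels lie to each other.

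For the members other than Fos and Junb, the channels went against their labels in the same way as the whole array. Over the 9 members measured in all 4 channels, the green channels, labelled as the same control, differed in size by a median of 0.40 on the log2 scale, with Egr1 the largest at -0.96 (array labelled Bcl-2 minus withdrawal array) and Fosl1 at 0.92. Between green of the array labelled Bcl-2 and red of the withdrawal array the median difference was 0.05, at most 0.34 for Fos. Between red of the array labelled Bcl-2 and green of the withdrawal array it was 0.16, with Ier2 at -0.41 and Jund at 0.30 the furthest from 0. The arrays share the control label, so their ratios are not independent of each other and no correlation over the members is given.

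**Figure D4:**
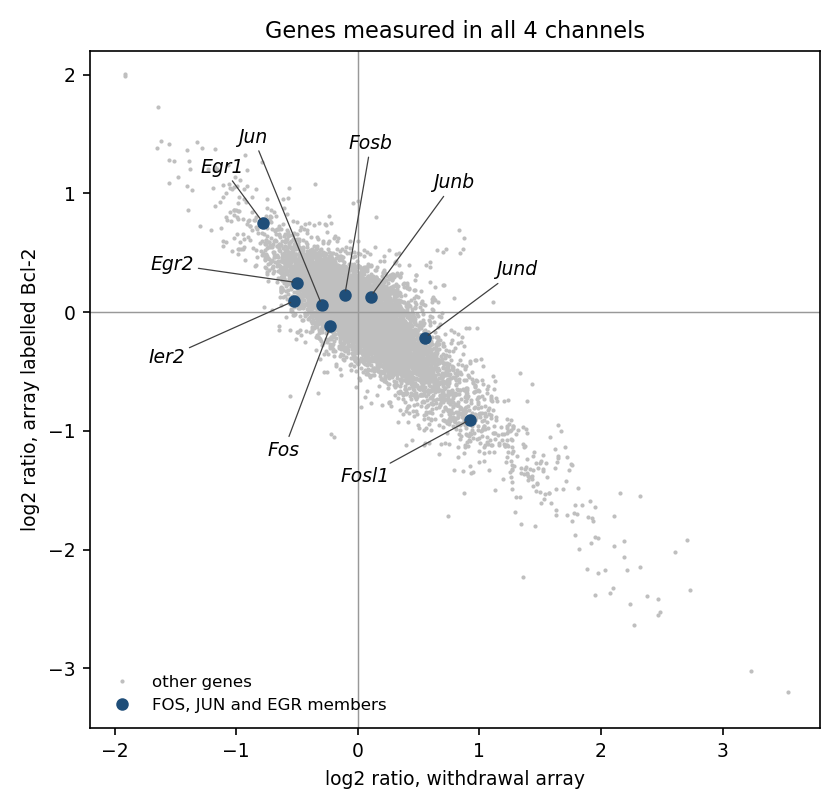
Log2 ratio on the withdrawal array (horizontal axis) against that on the array labelled Bcl-2 (vertical axis) for 9444 genes well above background in all 4 channels, with the 9 members in blue. The cloud runs from upper left to lower right, and Egr1 and Fosl1 lie along it toward opposite ends.

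The wider set of immediate early genes did not differ in 1 direction. Of 46 listed, 37 were measured on the withdrawal array, 21 above and 16 below 0, with a median log2 ratio of 0.11 (-0.11 with the sign turned) against 0.03 over all genes. Of 36 measured on the array labelled Bcl-2, 17 were above 0 and the median was -0.08 (0.08 with the sign turned) against -0.01 over all genes. With the loess ratio, the growth regulator Myc, at -1.40, was the 1 gene of the list at least 2-fold lower without bFGF. Of all genes 0.469% were, and Myc lay at 0.86 on the array labelled Bcl-2. With the same ratio, the nuclear receptor gene Nr4a1 was the 1 gene at least 2-fold higher in the channel labelled Bcl-2, at 1.32. Of all genes 0.555% were at least 2-fold higher there, and Nr4a1 lay at -0.93 without bFGF. Feature Extraction put 4 of 37 at least 2-fold lower and 2 higher without bFGF, against 10.4% of all genes in either direction. On the array labelled Bcl-2 it put 1 of 36 higher and 3 lower, against 10.3% of all genes. Klf10, a zinc finger gene induced by TGF-beta, was at -0.86 and 0.54, and the clock-related repressor Bhlhe40 at -0.75 and 0.47. Cebpd, a factor of the acute phase response, was at 0.72 and -0.82. Ccn2, which encodes connective tissue growth factor, was not well above background in vector with bFGF on the withdrawal array and was at least 2.06-fold higher without bFGF, where 2.41% of all genes were 2-fold higher. On the other array it was not well above background in the channel labelled Bcl-2, where its control was brighter by at least 1.61-fold. For these "at least" folds the dim channel was taken at its own signal or at the lowest signal that counts as well above background, whichever was higher.

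Of 13 AP-1 partners and regulators, 12 were measured on the withdrawal array and 9 on the array labelled Bcl-2, with 0 at least 2-fold on either, where 2.88% and 2.55% of all genes were. Feature Extraction put 1 past 2-fold on each array, Nab1 at -1.02 without bFGF and Maf at -1.26 in the channel labelled Bcl-2, against 10.4% and 10.3% of all genes. Nab1 and Nab2 encode the corepressors that bind EGR proteins, and Nab2 is itself an EGR target. Nab2 was at -0.43 without bFGF and 0.74 in the channel labelled Bcl-2, and Nab1 at -0.46 and 0.25. The stress factor gene Atf4 was at -0.58 and 0.19, and Atf3, a stress-induced partner of JUN, at 0.49 and -0.11. The large MAF factor gene Maf was at 0.61 and -0.26. Mafk, a small MAF factor gene, was not well above background in green of the withdrawal array and has no fold.

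No factor that binds immediate early promoters reached 2-fold with either ratio on either array. The 7 measured of 9 listed lay between -0.33 and 0.25 on the withdrawal array and between -0.10 and 0.49 on the other, with medians of -0.01 and 0.02. Feature Extraction spread them more widely, from -0.62 to 0.17 and from -0.05 to 0.61, with Elk1 at -0.62 and Elk4 at -0.61 on the withdrawal array and Atf1 at 0.61 on the other. Srf was at 0.05 and -0.08 and Creb1 at 0.25 and 0.04. Of the ETS partners of SRF, Elk1 was at -0.14 and 0.02 and Elk4 at -0.33 and 0.14. The CREB relatives Atf1 and Crem were at -0.26 and 0.49, and at 0.03 and -0.06.

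Of 24 genes of the ERK and JNK cascade, 23 were measured, and 1 was at least 2-fold, on the withdrawal array, where 2.88% of all genes were. That gene was the receptor Fgfr3, at 1.26 without bFGF and -0.99 in the channel labelled Bcl-2, and Feature Extraction put it past 2-fold on both, at 1.59 and -1.29. Rps6ka1, the kinase RSK1 that acts downstream of ERK, was at -0.89 and 0.61, and Rps6ka3 at -0.29 and 0.28. Hras was at -0.38 and 0.39, and Nras at 0.28 and -0.16. The list's medians were 0.06 and -0.02. Among 17 target genes of AP-1 and EGR factors, 14 and 11 were measured and 0 reached 2-fold on either array, against 2.88% and 2.55% of all genes, with medians of 0.07 and -0.21. Feature Extraction put 2 past 2-fold on the withdrawal array, Pdgfb at 2.15 and Plau at 1.37, and 2 on the other, Ccnd1 at 1.01 and Plau at -2.38, against 10.4% and 10.3% of all genes. The cyclin gene Ccnd1 was at -0.93 and 0.95 and the intermediate filament gene Vim at -0.49 and 0.56, while the haem oxygenase gene Hmox1 was at 0.55 and -0.57. Pdgfa, which encodes a platelet-derived growth factor chain, was at 0.30 and -0.10. The protease gene Plau was not well above background in vector with bFGF on the withdrawal array and was at least 1.23-fold higher without bFGF. In the channel labelled Bcl-2 it was not well above background, and its control was brighter by at least 1.15-fold. Pdgfb, which encodes another chain of that growth factor, was likewise not well above background in vector with bFGF and was at least 1.20-fold higher without it.

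The genes with ratios most like those of Fosl1 over both arrays, by Euclidean distance among 9444 genes, were Gabra4, Slc22a23, S100a11, Fam124a and Fggy. Their distances were 0.02, 0.02, 0.03, 0.04 and 0.04 log2 units, smaller than or near the SD over repeated spots, and with 2 arrays many genes lie this close.

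Markers of several other cell types differed along the same contrasts. On the withdrawal array, all 7 measured of 8 astrocyte markers and all 6 of 6 fibroblast and meninges markers were higher without bFGF, of which Lum passed the background filter only through its red channel. All 7 and all 5 measured on the other array were lower in the channel labelled Bcl-2. Dcn and Lum were close to 0 on the withdrawal array, at 0.08 and 0.04. Aqp4 was counted there by its median of 0.12, and its 2 probes had opposite signs, at -0.35 and 0.59. Summed signals add genes read by unlike probes and lean on the brightest of them. The summed signal of the astrocyte markers was 34550 in vector without bFGF and 14799 in its control, and 15223 in the channel labelled Bcl-2 and 34519 in its control. Their ratios differed widely, from 0.12 for Aqp4 to 3.54 for Apoe on the withdrawal array, with a median of 0.75, and the median on the other was -0.75. For the fibroblast and meninges markers the sums over 6 genes were 8039 in vector without bFGF and 4788 in its control. On the other array the sums over 5 genes were 2697 in the channel labelled Bcl-2 and 7552 in its control. Neuronal markers were higher without bFGF in 6 of 6 measured of 8, and 2 of 6 were higher in the channel labelled Bcl-2. On the withdrawal array the neuronal marker Stmn2 was counted by its median, with probes at -0.02 and 0.47. Feature Extraction put 5 of 6 neuronal markers above 0 without bFGF, with Elavl3 turning from 0.10 to -0.04. Progenitor markers were higher without bFGF in 6 of 8 measured of 9 and in the channel labelled Bcl-2 in 2 of 8, with Fabp7 at 1.26 and -0.91. Their summed signal was 205093 in vector without bFGF and 138963 in its control, and 153823 in the channel labelled Bcl-2 and 214465 in its control. Of 6 oligodendrocyte lineage markers, 5 were above 0 without bFGF and 3 in the channel labelled Bcl-2. Microglial and blood markers were below 0 in 3 of 4 measured of 6 without bFGF and above 0 in 4 of 4 in the channel labelled Bcl-2, and Ptprc and Itgam were not well above background in any channel. Of 5 endothelial markers, 2 were measured, 1 above and 1 below 0 on each array, and Pecam1, Flt1 and Cldn5 were not well above background in any channel. The part of cell type mixture in the ratios of Fosl1, Jund, Egr1 and the other members was not tested.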

How the data were processed

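Agilent rat arrays with 2 colours (design 028282, build rn4, 1 slide, 1 scan) were read with Feature Extraction 11.5.1.1, per the file headers, while the submitters' processing notes name 8.5.1.1. The deposited files give, per the file headers, median spot and local background intensity per channel without normalization, processed intensity, the log10 of red over green and the error of that ratio, a p-value of that ratio from spot noise, which was not used, and other columns with flags of 0 or 1. A value table deposited by the authors gives a linear ratio per probe (column medians 0.932 and 0.944), with no statement of scale, centring or direction. Its first column matched the withdrawal array's red over green within 0.05 log2 units, after a constant, for 100% of 28395 probes. Its second matched its own array for 7.06% and the product of both arrays for 100%, so the quotient of the columns was used for the array labelled Bcl-2.

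Signals were corrected by normexp (offset 50, a constant that draws dim ratios toward 0) and normalized by loess in limma 3.58.1 (R 4.3.3), giving control spots weight 0, and this step was checked on simulated data. Outlier spots were left out (534 and 576). Spots of a probe were averaged, probes well above background in at least 1 channel kept, and genes taken as the median over probes (Python 3.11.15). Accessions were named through RefSeq (GRCr8), which named 60.4% of 30367 probes. Channels were put on 1 scale by Aquantile. A gene counted as 2-fold needed all kept probes on the same side of 0. Intensity limits the precision, and with 1 array per comparison there is no SD between samples. Named genes were all members and the 6 genes of each list furthest from 0 on the withdrawal array, of which some are not reported here. Members and lists were chosen with earlier results of these data known. In all, 7 alternatives were run.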

Additional observations from a re-analysis of the deposited data

How the results depend on the processing

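Over the main processing and 7 alternatives, Egr1, Egr2, Ier2, Fosl1, Jund, Jun and Junb kept their sign on both arrays (Junb has no value in the table, and median centring brought Jun close to 0 on both arrays), while Fos on both arrays and Fosb on the withdrawal array did not. Changing the background filter or taking the brightest probe could not move these members, each with 1 probe. The value table holds the arrays' processed ratio up to a constant, so it is close to the Feature Extraction setting. No paired analysis was possible because each comparison has 1 array. The members' median on the withdrawal array was -0.33 with the Feature Extraction ratio, -0.23 with an offset of 10, -0.12 with median centring and -0.26 with the value table. On the array labelled Bcl-2 it was 0.15 with Feature Extraction, 0.018 with median centring and 0.054 with the value table. Each of these 3 settings, and an offset of 10, put 1 member, Fosl1, past 2-fold on each array. The other immediate early genes had a withdrawal median of -0.0040 with Feature Extraction, 0.18 with median centring, 0.020 without a filter and 0.035 with the brightest probe. On the array labelled Bcl-2 they had -0.016 with Feature Extraction, 0.020 with both channels well above background and 0.0075 without a filter, so the sign of that median is not settled. Of all genes, Feature Extraction put 891 higher and 239 lower on the withdrawal array, and 358 and 702 on the other. The value table gave 970 and 186, and 307 and 750; on the withdrawal array an offset of 10 gave 444 and 91 and median centring 472 higher. Low signal over background limits Fos, Fosl2, Egr2 and Fosl1, and the causes of these shifts were not tested.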
